A study of Mus musculus with 61 samples.

Results

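NZO and NOD, the classical inbred strains prone to diabetes, were set against the classical strains AJ, B6 and 129 in skeletal muscle of mice on one high-fat, high-sugar diet. The question was which muscle transcripts lie on the same side in both diabetes-prone strains. The comparison was the equally weighted mean of NZO (8 libraries) and NOD (7 libraries) minus that of AJ, B6 and 129 (8 libraries each). It used 39 of the 61 libraries of the series, and the 22 libraries of the wild-derived strains Cast, PWK and WSB were left out. Every library was labelled with one diet, 45 percent fat. No strain was labelled as a control, and age, sex and genotype beyond the strain name were not given. A gene was taken as moving in the same direction when it passed an adjusted p of 0.05 for the joint contrast, for NZO alone and for NOD alone, always with the same sign. Of 15842 genes tested, 1073 met this rule, 566 higher and 507 lower.

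NZO mice become obese and insulin resistant from many loci, and part of the males go on to type 2 diabetes. NOD mice develop autoimmune diabetes, in which T cells destroy the insulin-producing beta cells, and their class II major histocompatibility (MHC) haplotype is the main risk locus. Skeletal muscle takes up most of the glucose that insulin clears from the blood, burns fatty acids when glucose is scarce, and holds vessels, nerves, fat cells and immune cells beside its fibres. The strains also differ by descent at many loci that have no bearing on diabetes, and with the strain as the only factor these cannot be told apart from disease-related differences.

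Summed expected counts lay between 19.2 M and 65.2 M (median 32.0 M), and they showed no detectable difference between the sides (difference of strain means 1.06 M, permutation test within the 39 libraries, two-sided, adjusted p = 0.86 over 19 measures). In all 5 strains the libraries numbered 1 to 4 (20 in all) held 139 to 264 CPM of Xist, the transcript of the inactive X chromosome, and at most 0.806 CPM of the Y-linked Ddx3y. Those numbered 5 to 9 (19 in all) held 65.6 to 90.3 CPM of Ddx3y and at most 30.5 CPM of Xist, so the numbers split every strain by these sex transcripts. In library B6_5 the ribosomal RNA gene Rn18s-rs5 held 46.3% of all counts. Libraries B6_1 and B6_6 stood apart in T, B and NK lymphocyte markers, with log2 summed levels of 6.61 and 5.34, against 0.10 to 2.07 in NZO and NOD libraries. Nothing in the labels states that a strain's libraries are from different animals. The p-values therefore measure the spread between libraries, part of which may be technical, and not the spread between 2 and 3 strains. The main fit held strain as its only factor. This spread, and each SE and SD, thus also holds differences between the 2 number groups with unlike sex transcripts.

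Levels are given in CPM, read counts scaled to library size by TMM factors. Differences are log2 differences (NZO and NOD minus AJ, B6 and 129) with their standard error (SE) and the Benjamini-Hochberg adjusted p of edgeR's quasi-likelihood test over all 15842 genes. In bulk tissue, fewer cells of a type and less RNA per cell cannot be told apart.

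The joint contrast called 3782 genes, 23.9% of those tested, with 1914 higher (12.1%) and 1868 lower (11.8%). NZO alone differed from AJ, B6 and 129 in 4010 genes (25.3%), and NOD alone in 3545 genes (22.4%). The same-direction rule left 566 higher genes (3.57% of genes tested) and 507 lower genes (3.20%), 6.77% in all. Both strain means lay outside the range of the AJ, B6 and 129 means for 405 of the higher genes (2.56%) and 365 of the lower genes (2.30%). All 15 NZO and NOD libraries lay outside the 24 others for 12 higher genes (0.0757%) and 7 lower genes (0.0442%). NZO and NOD share their 24 comparison libraries, so the 2 arms are not independent, and the median log2 difference of all genes was -0.0009 for the joint contrast. The typical change was small: the median size was 0.36 log2 units among higher and 0.48 among lower same-direction genes. Both arms reached 1 log2 unit for 83 higher and 61 lower genes.

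The same-direction rule was met by 709 genes in libraries numbered 1 to 4 alone and by 490 in those numbered 5 to 9 alone, and 265 genes met it in both. A test of the difference between the number groups, numbers 1 to 4 minus numbers 5 to 9, called 401 genes for NZO (2.53% of genes tested), 8 for NOD (0.0505%) and 60 for the joint contrast (0.379%). The split by number was looked at after the data were seen. Where the test called a difference for a named gene reported here, values stand beside that gene or in a later section.

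**Figure D1:**
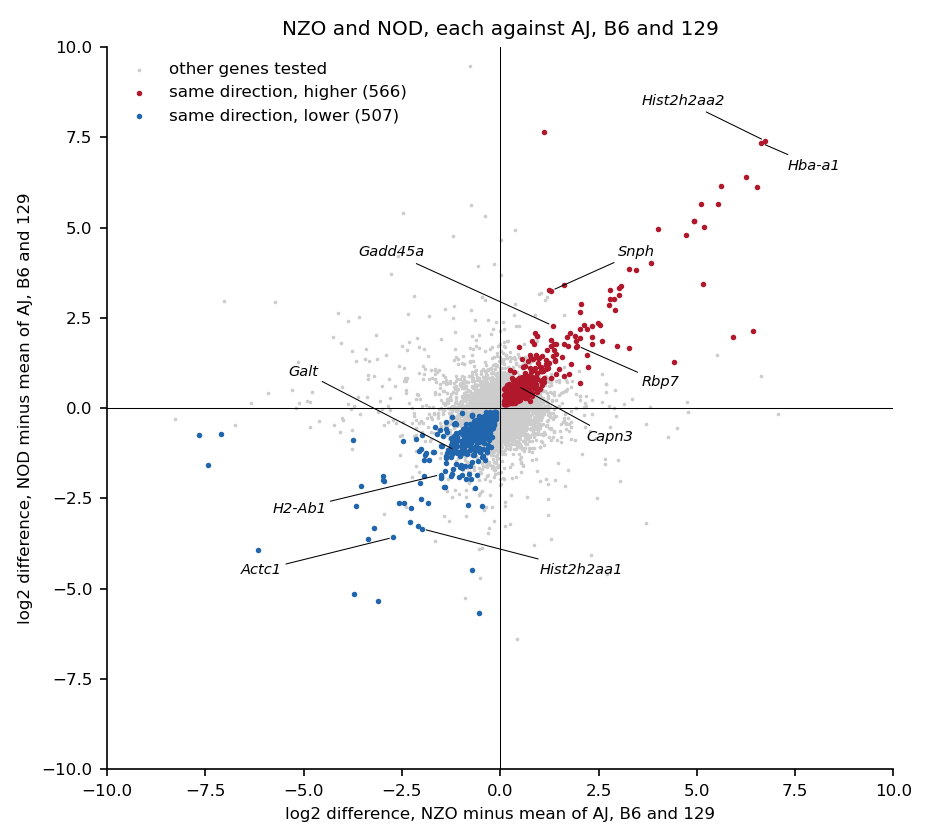
Log2 difference of NZO (horizontal axis) and of NOD (vertical axis) from the mean of AJ, B6 and 129 for every gene tested, with the 566 higher and 507 lower same-direction genes in color. Both axes subtract the same 24 libraries, so points lean toward the diagonal by construction; Hist2h2aa2 and Hba-a1 sit farthest out among the labelled genes and Capn3 close to the centre.

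Replacing the 39 libraries by 5 strain means, so that strains are the replicates, left 2 genes past the threshold in limma, Hba-a1 and Tpm3-rs7 (a related sequence of the tropomyosin gene Tpm3, chosen after its value was seen), and 611 genes at an unadjusted p under 0.05. The comparison strains also weighed unequally. Of the 566 higher genes, 356 kept the call without AJ, 439 without B6 and 438 without 129, and 190 kept it in all 3 cases. Of the 507 lower genes, 320, 375 and 381 kept it, and 165 kept it in all 3.

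Genes whose libraries did not overlap come first, and they were chosen by that lack of overlap. Hist2h2aa2, Hist2h2aa1 and Hba-a1 had none either, but are uncertain because of near-identical copies, as given below. Slc40a1 encodes ferroportin, the only known cellular iron exporter, and lies on chromosome 1 at 45908068 to 45926523 (GRCm38). It ranged from 13.6 to 20.3 CPM (median 18.2) in NZO and from 12.9 to 21.4 CPM (median 17.2) in NOD, against 23 to 48.9 CPM (median 29.1) in the 24 AJ, B6 and 129 libraries. Every NZO and NOD library was below every other library, and the joint difference was -0.82 (SE 0.07, adjusted p = 2.28e-11).

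Galt, the galactose-1-phosphate uridylyltransferase of galactose breakdown (chromosome 4, 41755228 to 41758695), held 5.43 to 10.4 CPM (median 6.76) in NZO and 6.0 to 8.62 CPM (median 7.35) in NOD, against 13.1 to 20.8 CPM (median 16.2) in AJ, B6 and 129. No library of the 2 groups overlapped, and the difference of -1.15 (SE 0.06, adjusted p = 6.76e-18) stayed between -1.17 and -1.13 when any 1 of the 3 comparison strains was left out. Exons of Galt overlap another gene on the other strand, and a near-identical copy of Galt is annotated, so reads may have been shared. Nudt19, a hydrolase of coenzyme A in peroxisomes, held 18.5 to 22.1 CPM in NZO and 17.9 to 24.4 CPM in NOD, against 25.7 to 42.8 CPM in the other strains (-0.58, SE 0.04, adjusted p = 9.42e-15). Uqcc1, an assembly factor of respiratory complex III, held 41.3 to 64.8 CPM in NZO, 34.0 to 44.4 CPM in NOD and 65.8 to 86.0 CPM in AJ, B6 and 129. Its fall was -0.41 in NZO and -0.96 in NOD, and those 2 values differed (NZO minus NOD 0.55, adjusted p = 2.25e-08).

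Capn3 encodes the muscle-specific calpain whose loss in humans causes a limb-girdle muscular dystrophy. It was higher in every NZO library (161 to 195 CPM, median 169) and NOD library (173 to 209 CPM, median 203) than in any AJ, B6 or 129 library (103 to 151 CPM, median 133). The difference was 0.53 (SE 0.03, adjusted p = 1.05e-16), with 0.43 in NZO and 0.62 in NOD. Exons of Capn3 overlap those of Ganc on the same strand. Of the 75 named genes, 28 overlap another gene's exons, and whether counting used strand is not given in the sources used here.

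**Figure D2:**
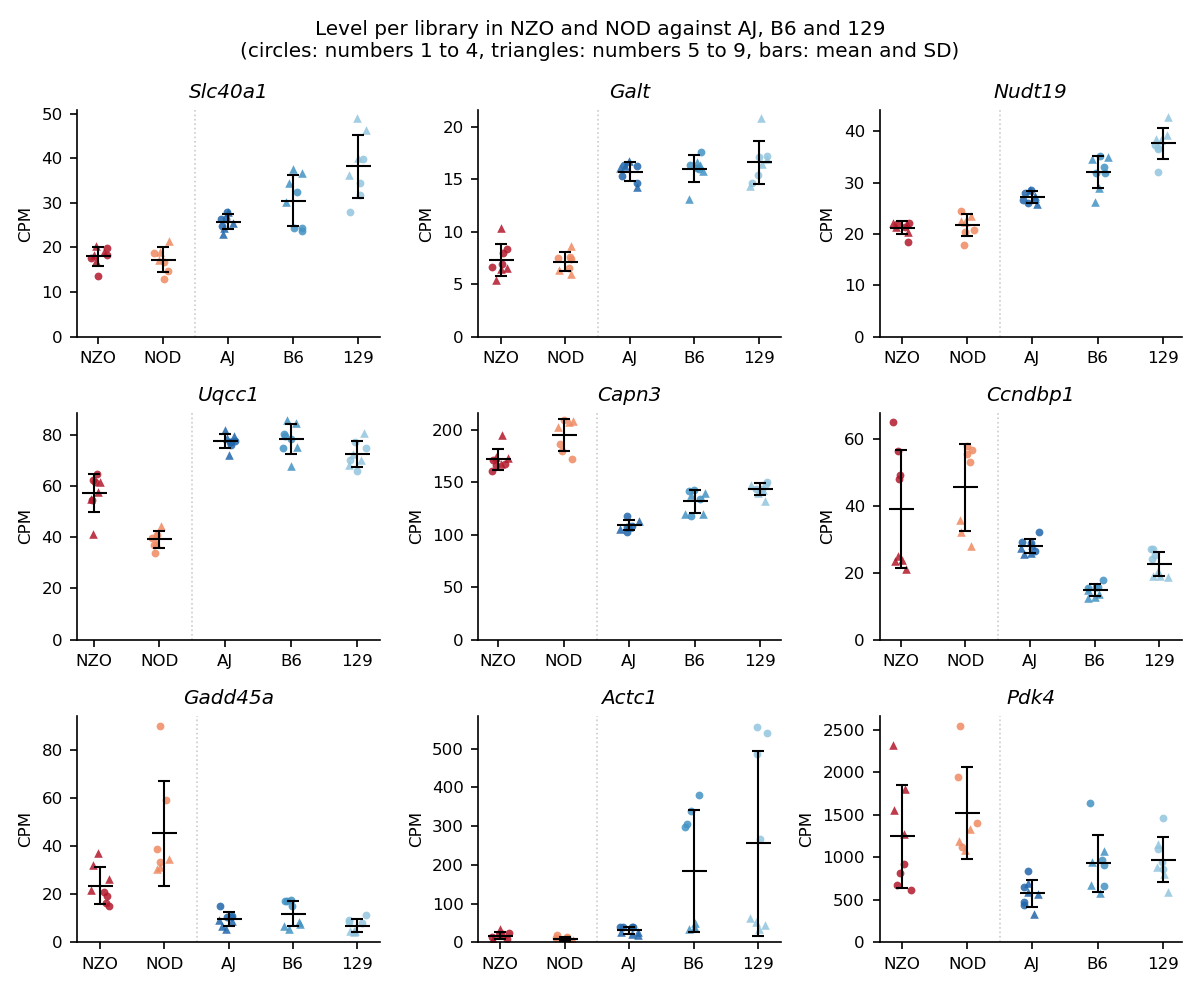
Level in CPM of 9 genes in each library, with mean and SD per strain, NZO and NOD left of AJ, B6 and 129, circles for libraries numbered 1 to 4 and triangles for 5 to 9. Slc40a1, Galt, Nudt19, Uqcc1 and Capn3 show no overlap between the sides. Circles and triangles lie apart in NZO, NOD, B6 and 129 for Ccndbp1, in NZO, AJ, B6 and 129 for Gadd45a, and in NZO for Pdk4. For Actc1 they lie apart in NOD, AJ, B6 and 129, most widely in B6 and 129.

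Nr4a3, an orphan nuclear receptor that exercise induces in muscle, ranged from 23.4 to 81.0 CPM (median 48.9) in NZO and from 27.6 to 72.2 CPM (median 55.5) in NOD. In AJ, B6 and 129 it ranged from 5.2 to 68.4 CPM (median 15.7), so the sides overlapped, and the difference was 1.45 (SE 0.23, adjusted p = 6.93e-06). Gadd45a, a stress-inducible gene that also responds to denervation, had medians of 21.2 CPM in NZO and 34.8 CPM in NOD, against 8.64 CPM in the other 24 libraries. Its highest value there was 17.6 CPM, and only NZO reached below that, with a lowest library at 15.1 CPM. It rose by 1.34 in NZO and 2.28 in NOD, a difference between the strains that passed the test (NZO minus NOD -0.95, adjusted p = 0.0074). In NZO it rose by 0.54 in libraries numbered 1 to 4 and by 2.21 in those numbered 5 to 9 (difference -1.66, adjusted p = 0.000105). NZO held 15.07 to 20.76 CPM of Gadd45a in numbers 1 to 4 and 21.72 to 37.27 CPM in numbers 5 to 9. The comparison strains split the other way, with 15.26 to 17.59 and 5.733 to 8.55 CPM in B6. AJ held 10.36 to 14.95 and 5.648 to 9.433 CPM, and 129 held 7.938 to 11.5 and 4.265 to 4.888 CPM.

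Rbp7, a retinoid-binding protein of fat and vessel cells, was high in NZO (median 9.3 CPM), NOD (median 11.6 CPM) and also 129 (median 11.0 CPM), and low in AJ (1.96 CPM) and B6 (1.64 CPM). The difference was 1.84 (SE 0.14, adjusted p = 6.41e-13), and 129 lay at the level of NZO and NOD. In NZO the difference of Rbp7 was 1.27 in numbers 1 to 4 and 2.47 in numbers 5 to 9 (difference -1.20, adjusted p = 0.0281). Snph, syntaphilin, which anchors mitochondria in axons, reached a median of 17.3 CPM in NOD and 4.26 CPM in NZO, against 0.467 to 4.41 CPM in the other strains. Its rise was 3.25 in NOD and 1.29 in NZO (NZO minus NOD -1.95, adjusted p = 2.12e-14). Cdh4, the cell adhesion molecule R-cadherin, averaged 43.9 ± 6.06 CPM in NZO (SD, n = 8) and 31.2 ± 7.62 CPM in NOD (SD, n = 7), against 13.6 to 18.7 CPM as strain means in the others (1.18, SE 0.12, adjusted p = 3.74e-10). Tmc7, of the transmembrane channel-like family, rose by 1.03 (SE 0.07, adjusted p = 2.16e-14), but 0.35 remained without 129, whose mean of 3.32 CPM lay far below 15.1 CPM in AJ and 12.6 CPM in B6. Ccndbp1, a cyclin D binding protein, rose by 1.00 (SE 0.12, adjusted p = 1.96e-08). In libraries numbered 1 to 4 it held 47.99 to 64.98 CPM in NZO and 53.0 to 57.7 CPM in NOD, and in those numbered 5 to 9 it held 20.98 to 25.08 CPM in NZO and 28.0 to 35.8 CPM in NOD, against 12.4 to 32.1 CPM in AJ, B6 and 129. NZO libraries numbered 5 to 9 thus lay within the range of the other strains. The joint difference was 1.26 in numbers 1 to 4 and 0.52 in numbers 5 to 9 (difference 0.75, adjusted p = 5.71e-07), and with marker sums as covariates it was 0.60 and the NZO call was lost (adjusted p = 0.131).

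Several of the largest differences concern genes with near-identical copies, where counting can shift reads from one copy to another. The histone genes Hist2h2aa2 (7.07) and Hist2h2aa1 (-2.67) moved in opposite directions, with 13.1 ± 2.47 and 20.7 ± 2.37 CPM of Hist2h2aa2 in NZO and NOD (SD, n = 8 and 7), against 0.184 ± 0.34 CPM in the others (SD, n = 24). With the counts of both and of the further copies Hist2h2ac and Gm20634 added together, the difference was -0.33 and NOD alone missed the threshold (adjusted p = 0.093). The alpha-globin gene Hba-a1 showed 6.99 by itself and 0.69 with its copy Hba-a2 added, with 153 CPM in NZO and 220 CPM in NOD, against 130 CPM in AJ, 96.0 CPM in B6 and 118 CPM in 129. NZO then missed the threshold (adjusted p = 0.0912). The beta-globin gene Hbb-bt showed 1.20 by itself and 0.49 with Hbb-bs added, where NZO alone also missed the threshold (adjusted p = 0.356). The guanylate-binding gene Gbp6 (ENSMUSG00000104713) showed 0.88 by itself and -0.11 with its copies added (adjusted p = 0.666). These differences are uncertain as differences of single genes.

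On the lower side, Actc1, the cardiac actin that muscle makes in development and repair, held 6.8 to 34.2 CPM (median 16.8) in NZO and 2.94 to 18.6 CPM (median 11.3) in NOD, against 18.4 to 557 CPM (median 42.9) in the others. Its difference was -3.15 (SE 0.42, adjusted p = 2.86e-07). The high levels were those of numbers 1 to 4, with 298 to 379 CPM in B6 and 268 to 557 CPM in 129. Numbers 5 to 9 held 35.3 to 49.9 CPM in B6 and 33.5 to 62.6 CPM in 129. At lower levels AJ also split, with 38.65 to 41.05 CPM in numbers 1 to 4 and 18.36 to 26.83 CPM in numbers 5 to 9. NOD did so with 11.33 to 18.63 CPM and 2.937 to 5.227 CPM. The joint difference was -3.61 in numbers 1 to 4 and -2.0 in numbers 5 to 9 (difference -1.60, adjusted p = 0.00909), and for NZO alone it was -3.46 and -0.96. Mtap, the methylthioadenosine phosphorylase of methionine salvage, was low in NZO (3.36 ± 0.4 CPM, SD, n = 8), NOD (3.23 ± 0.541, SD, n = 7) and 129 (3.98 ± 0.779, SD, n = 8), and high in AJ (9.65 ± 0.767) and B6 (12.6 ± 1.54, SD, n = 8 each). Otub2, a deubiquitinase, fell by 0.89 in NZO and 1.61 in NOD (joint -1.25, SE 0.11, adjusted p = 1.78e-11). Sytl2, an effector of Rab27 in vesicle traffic, fell by 0.85 (SE 0.12, adjusted p = 3.91e-07), and Vsig10, an immunoglobulin-domain protein, by 0.82 (SE 0.08, adjusted p = 5.19e-10).

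Gene lists of muscle fuel use, immunity, stress and cell types show where calls gathered. A list is read here by its count of called members beside 12.1% higher and 11.8% lower among all genes tested, with no test of the list, and nothing particular to a list is drawn from it.

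**Figure D3:**
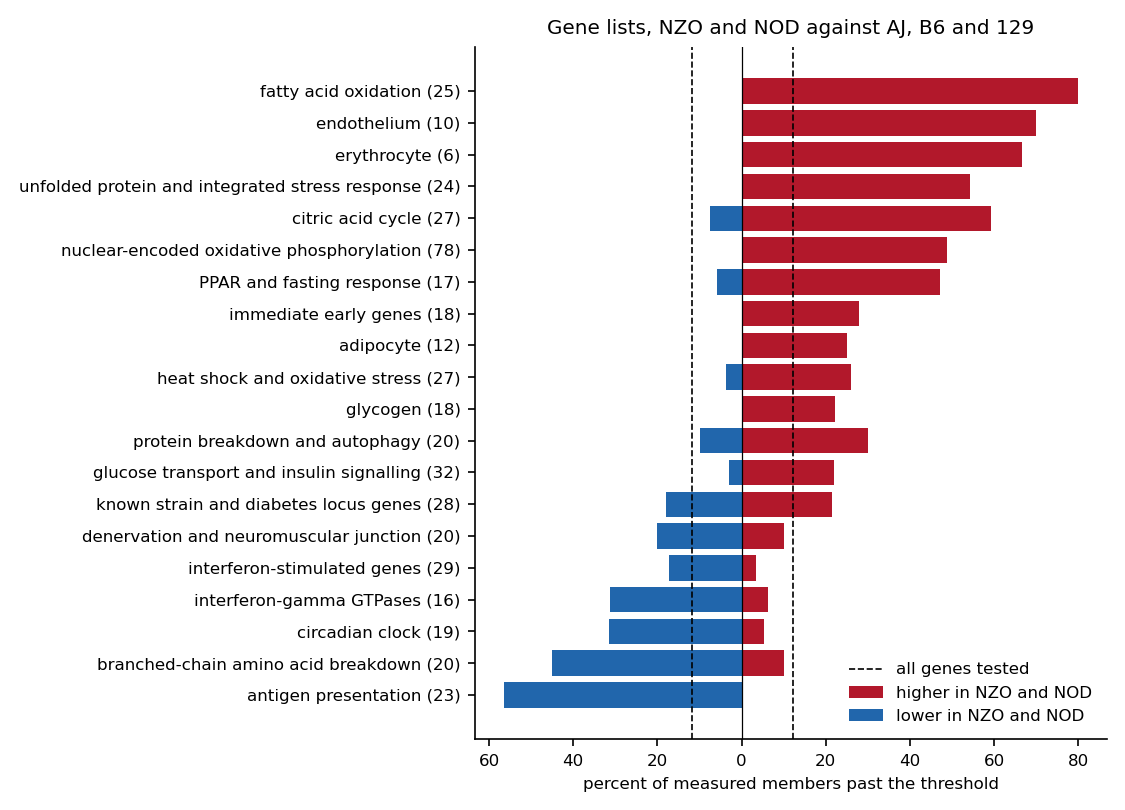
Percent of the measured members of each of 20 gene lists (number of members in brackets) that were higher (right) or lower (left) in NZO and NOD than in AJ, B6 and 129, with dashed lines at 12.1% and 11.8%, the shares among all genes tested. Fatty acid oxidation has the highest share of higher members and antigen presentation the highest share of lower members.

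Most genes of fatty acid oxidation were higher in the joint contrast, by small amounts. Of 25 measured, 20 were higher and 0 lower, with a median difference of 0.19. NZO alone had 11 higher and NOD alone 16, and 7 met the same-direction rule (Acsl1, Cpt2, Acadvl, Acadl, Hadha, Etfb and Acaa2). The 20 became 13 with marker sums as covariates and 9 without AJ, with 4 and 2 same-direction members. In libraries numbered 1 to 4 alone 8 were higher and 0 met the rule, and in those numbered 5 to 9 alone 16 were higher and 7 met it. Acadl, the long-chain acyl-CoA dehydrogenase, averaged 315 ± 80.7 CPM in NZO (SD, n = 8) and 296 ± 34.6 CPM in NOD (SD, n = 7), against 201 ± 14.1 in AJ, 234 ± 29.5 in B6 and 235 ± 27.9 CPM in 129 (SD, n = 8 each). Its difference was 0.45 (SE 0.07, adjusted p = 4.05e-06), and NZO and NOD libraries overlapped with the upper part of B6 and 129. NZO libraries numbered 1 to 4 held 232 to 263 CPM and those numbered 5 to 9 held 344 to 419 CPM, above all AJ, B6 and 129 libraries. The NZO difference was 0.13 in numbers 1 to 4 (adjusted p = 0.367) and 0.78 in numbers 5 to 9 (adjusted p = 5.6e-07), and these differed from each other (-0.65, adjusted p = 0.00229). Acadvl, the very-long-chain dehydrogenase, rose by 0.24 (SE 0.05, adjusted p = 0.00023), and Acsl1, which activates fatty acids to acyl-CoA, also by 0.24 (SE 0.05, adjusted p = 0.000486). The fatty acid transporter Cd36 rose in NZO (0.48, adjusted p = 7.59e-06) and had 0.13 in NOD (adjusted p = 0.299), while the hydratase Echs1 rose in NOD (0.39, adjusted p = 7.92e-06) and had -0.06 in NZO (adjusted p = 0.519). NZO and NOD differed from each other in Cd36 (adjusted p = 0.00883) and in Echs1 (adjusted p = 2.05e-05).

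Without AJ, 9 of the 25 members were higher and 2 met the same-direction rule, without B6_1 and B6_6 19 and 6 did, and with marker sums of other cells as covariates 13 and 4 did. Acsl1 missed the threshold in the fit with marker sums (0.13, adjusted p = 0.178).

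The list of the PPAR receptors, sensors of fatty acids, with their coactivators and genes of the fasting response gave 8 higher and 1 lower of 17 (2 lower without NZO_8). The lower member was the receptor Ppara, and the coactivator Ppargc1a was among the higher ones. The 2 with the same direction were Pdk4 and Angptl4, and without AJ the list gave 3 higher and 0 with the same direction. With marker sums as covariates it gave 2 higher and 0 with the same direction. Pdk4, the kinase that shuts pyruvate dehydrogenase off in fasting, ranged from 612 to 2317 CPM (median 1097) in NZO and from 1084 to 2551 CPM (median 1330) in NOD, against 337 to 1641 CPM (median 821) in AJ, B6 and 129. The AJ libraries were lowest, with a mean of 577 ± 159 CPM (SD, n = 8), and the sides overlapped (0.77, SE 0.16, adjusted p = 0.000262). Its NZO call was lost without NZO_8 and, at an adjusted p of 0.234, with marker sums as covariates, and the same-direction call also without AJ (joint 0.53, adjusted p = 0.0339). NZO libraries numbered 1 to 4 held 612 to 923 CPM and those numbered 5 to 9 held 1272 to 2317 CPM. The NZO difference was -0.23 in numbers 1 to 4 (adjusted p = 0.55) and 1.26 in numbers 5 to 9 (adjusted p = 0.000118), and these differed from each other (-1.47, adjusted p = 0.00915). In NOD it was 1.00 in numbers 1 to 4 and 0.73 in numbers 5 to 9. Angptl4, a secreted lipoprotein lipase inhibitor, rose by 0.71 (SE 0.17, adjusted p = 0.00149), but its NOD call (adjusted p = 0.0436) was lost without any 1 of 17 libraries. The PPAR coactivator Ppargc1a rose in NOD (0.98, adjusted p = 0.000107) and had 0.07 in NZO (adjusted p = 0.831; NZO minus NOD -0.90, adjusted p = 0.00384). Ppara itself fell in NZO (-0.66, adjusted p = 3.15e-06) and had 0.13 in NOD (adjusted p = 0.414; NZO minus NOD -0.78, adjusted p = 4.74e-06).

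Of 78 nuclear-encoded subunits of oxidative phosphorylation, 38 were higher and 0 lower, with a median difference of 0.12. NZO alone had 9 higher and 3 lower, and NOD alone 44 higher and 0 lower. The 7 same-direction members were Ndufb9, Ndufv2, Sdhc, Sdhd, Atp5c1, Atp5d and Atp5o. Sdhc, a membrane subunit of succinate dehydrogenase, rose by 0.20 (SE 0.03, adjusted p = 1.36e-05), and Ndufb9 of complex I and Atp5d of the ATP synthase each by 0.17 (SE 0.05 and 0.04, adjusted p = 0.00678 and 0.00339). The 38 higher members became 14 with marker sums as covariates, 21 without B6 and 8 in libraries numbered 5 to 9 alone. The 7 became 2 with marker sums, 2 without B6, 4 without AJ, 19 without 129 and 0 in numbers 5 to 9 alone. The count of 7 ranged from 3 to 15 when single libraries were left out. It was 15 without NZO_8, 13 without NZO_1, and 3 without NZO_2, NZO_3 or NZO_4. It was 4 without NZO_5, NZO_7, NOD_7, AJ_4, B6_6, 129_1, 129_8 or 129_9, and also without B6_1 and B6_6 together. The 13 genes of the mitochondrial genome gave 1 higher and 0 lower.

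The citric acid cycle and its pyruvate dehydrogenase entry gave 16 higher and 2 lower of 27, with 8 same-direction members. Pdha1, the catalytic subunit of pyruvate dehydrogenase, held 548 to 686 CPM (median 641) in NZO and 577 to 734 CPM (median 662) in NOD, against 458 to 688 CPM in the others, where AJ and B6 had medians of 519 and 529 CPM and 129 of 586 CPM. Pdha1 and Idh3b, a subunit of isocitrate dehydrogenase, each rose by 0.24 (SE 0.04 each, adjusted p = 1.24e-06 and 4.46e-06). The lower members did not share a side. Pdk1, a pyruvate dehydrogenase kinase, fell by 1.49 in NZO and rose by 0.21 in NOD (NZO minus NOD -1.71, adjusted p = 1.07e-27), and Suclg2, a subunit of succinyl-CoA synthetase, fell by 0.42 in NOD and had 0.07 in NZO (adjusted p = 0.335). Without NZO_4 the same-direction count was 5.

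**Figure D4:**
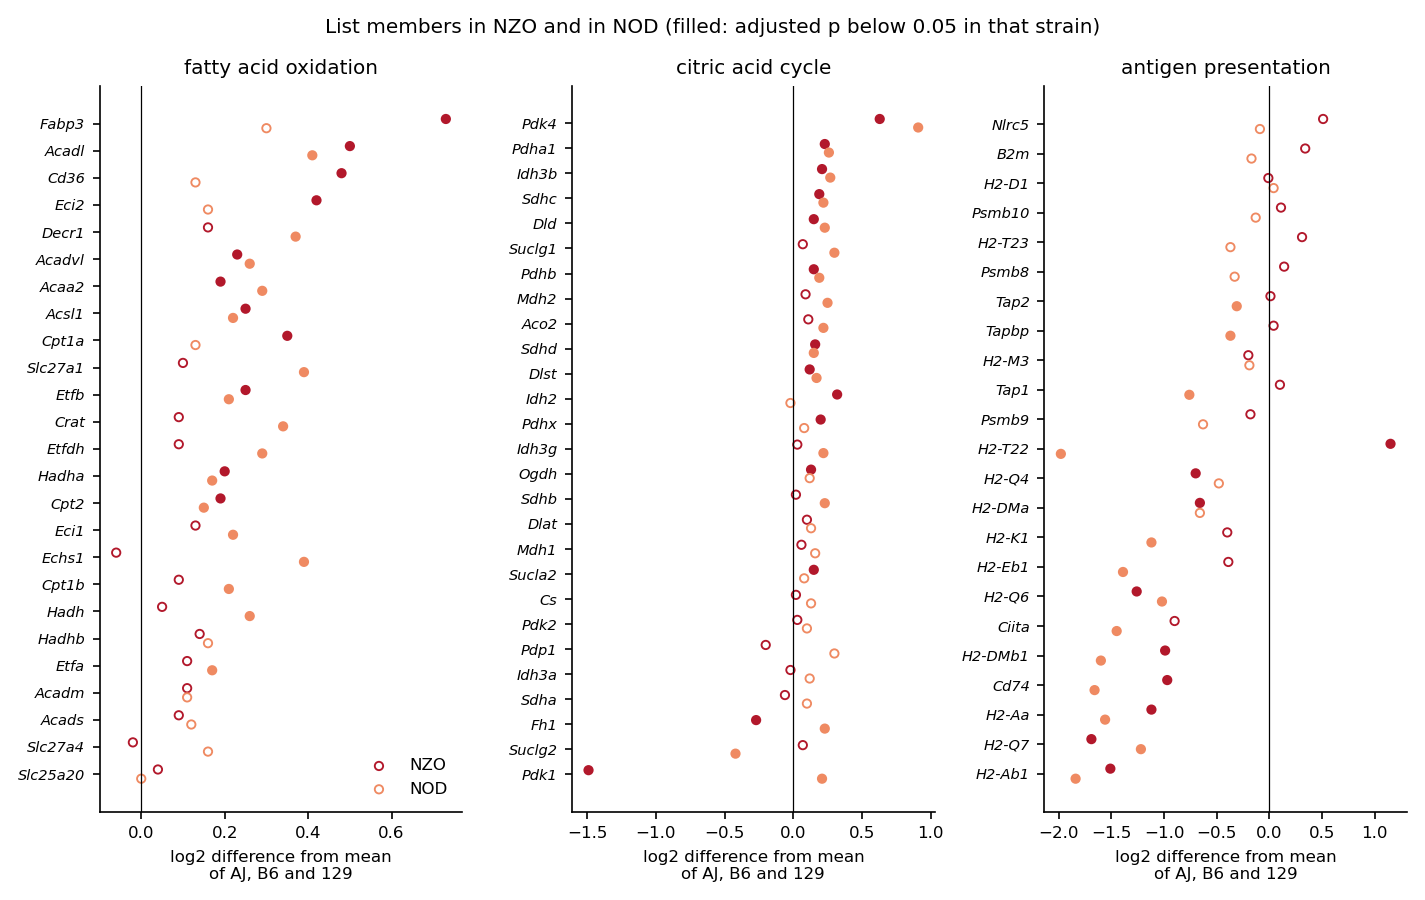
Log2 difference from the mean of AJ, B6 and 129 of each member of 3 gene lists in NZO (dark red) and in NOD (orange), filled where the adjusted p of that strain was below 0.05. Nearly all members of fatty acid oxidation lie right of 0 in both strains, Pdk1 lies far apart between them, and the class II genes H2-Ab1, H2-Aa and Cd74 lie left of 0 in both.

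Insulin signalling and glucose transport gave 7 higher and 1 lower of 32 (2 lower without NZO_4), with 3 same-direction members. Mtor, the kinase that couples nutrients and insulin to growth, held 78.7 to 99.6 CPM (median 93.7) in NZO and 90.9 to 101 CPM (median 98.6) in NOD, against 57.8 to 87.1 CPM (median 73.2) in AJ, B6 and 129. All 7 NOD libraries lay above the other 24, and the difference was 0.37 (SE 0.04, adjusted p = 9.91e-11). Tbc1d4, the AS160 protein that holds glucose transporters inside the cell until insulin acts, had means of 63.3 CPM in NZO and 45.0 CPM in NOD, against 36.9 CPM in AJ, 63.3 CPM in B6 and 19.7 CPM in 129. Its joint difference was 0.57 (SE 0.09, adjusted p = 6.1e-06), and without 129 it was 0.14 (adjusted p = 0.33). In NZO it was 0.38 in numbers 1 to 4 and 1.18 in numbers 5 to 9 (difference -0.79, adjusted p = 0.0171). Gsk3a, a kinase that inhibits glycogen synthase, rose by 0.12 (SE 0.03, adjusted p = 0.00196). The NOD calls of Tbc1d4 and Gsk3a had adjusted p-values of 0.0401 and 0.0397 and were lost without any 1 of 8 libraries (Tbc1d4) and 7 libraries (Gsk3a), and without B6_1 and B6_6, where 1 same-direction member remained. The count was also 1 without NOD_2, NOD_7, NOD_8, AJ_5 or B6_6.

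Of 18 glycogen genes, 4 were higher and 0 lower. The branching enzyme Gbe1 rose by 0.39 (SE 0.09, adjusted p = 0.00209), with 99.2 to 113 CPM in NZO libraries numbered 1 to 4 and 38.1 to 57.2 CPM in those numbered 5 to 9, and the muscle glycogen synthase Gys1 by 0.18 (SE 0.05, adjusted p = 0.003). With the marker sums as covariates Gbe1 gave 0.09 (adjusted p = 0.671) and Gys1 0.09 (adjusted p = 0.333). The joint difference of Gbe1 was 0.64 in numbers 1 to 4 and 0.02 in numbers 5 to 9 (difference 0.62, adjusted p = 0.00268). In NZO that of Gys1 was 0.36 in numbers 1 to 4 and 0.00 in numbers 5 to 9 (difference 0.36, adjusted p = 0.0312). Their same-direction calls were lost without any 1 of 5 libraries (Gbe1) and 7 libraries (Gys1), 12 in all.

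Breakdown of branched-chain amino acids had 9 lower and 2 higher members of 20. NZO alone had 10 lower members and NOD alone 2. Pccb, a subunit of propionyl-CoA carboxylase, fell by 1.46 in NZO and had -0.09 in NOD (adjusted p = 0.29; NZO minus NOD -1.37, adjusted p = 1.11e-17). Of the members with the same direction, Bckdha, a subunit of the branched-chain ketoacid dehydrogenase, rose (0.40, SE 0.04, adjusted p = 5.38e-09), as did Dld, shared with the citric acid cycle (0.19, SE 0.04, adjusted p = 0.00104). Ppm1k, the phosphatase that activates that dehydrogenase, fell to means of 12.1 ± 1.97 CPM in NZO (SD, n = 8) and 15.2 ± 2.13 CPM in NOD (SD, n = 7), against 17.2 ± 0.988 in AJ, 19.3 ± 2.5 in B6 and 16.6 ± 1.71 CPM in 129 (SD, n = 8 each; -0.38, SE 0.06, adjusted p = 5.14e-06). Its NOD call (adjusted p = 0.0432) was lost without any 1 of 14 libraries, and that of Dld in NZO (adjusted p = 0.0336) without NZO_1, NZO_4, NZO_5 or AJ_1. Without B6_1 and B6_6, 1 same-direction member remained, Bckdha. The rise of Bckdha was 0.20 in NZO and 0.60 in NOD (NZO minus NOD -0.39, adjusted p = 4.41e-05). Its same-direction call was lost without AJ and with marker sums as covariates (NZO 0.12, adjusted p = 0.286). In numbers 5 to 9 alone it was lost too (NZO 0.13, adjusted p = 0.28).

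Antigen presentation gave the largest share of falls, with 13 lower and 0 higher of 23 and a median difference of -0.41. MHC class II molecules, made by dendritic cells, macrophages and B cells, present peptides to helper T cells, and their genes are switched together by the coactivator Ciita through shared promoter boxes. Class II genes fell in both strains. H2-Ab1, a beta chain, held 3.45 to 7.89 CPM (median 5.65) in NZO and 2.51 to 7.38 CPM (median 4.01) in NOD, against 7.75 to 64.7 CPM (median 13.1) in AJ, B6 and 129. Of the 15 NZO and NOD libraries, 14 lay below all 24 others, and the difference was -1.68 (SE 0.21, adjusted p = 6.93e-08).

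H2-Aa, the matching alpha chain, held 7.16 to 13.2 CPM in NZO and 3.82 to 12.3 CPM in NOD, against 8.25 to 89.4 CPM in the others (-1.34, SE 0.21, adjusted p = 3.33e-06). Cd74, the invariant chain that guides class II molecules through the cell, fell by 1.31 (SE 0.20, adjusted p = 2.07e-06), and H2-DMb1, of the peptide loader, by 1.29 (SE 0.18, adjusted p = 3.57e-07). H2-Q7, a class I-like gene, fell by 1.46 (SE 0.28, adjusted p = 0.000139), and by 1.32 with the copies H2-Q5 and H2-Q6 added. It fell by 0.80 without B6, whose mean of 13.5 CPM exceeded 4.4 CPM in AJ and 2.64 CPM in 129. Ciita passed the joint contrast (-1.17, SE 0.31, adjusted p = 0.00375) and NOD alone (-1.45, adjusted p = 0.0106) but not NZO alone (-0.90, adjusted p = 0.0791).

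B6_1 and B6_6, the libraries with high lymphocyte markers, were also the highest in class II genes. Without them the class II differences were smaller and still past the threshold in both arms, with -1.40 for H2-Ab1 (adjusted p = 4.16e-10), -1.07 for H2-Aa (adjusted p = 7.89e-08) and -1.06 for Cd74 (adjusted p = 6.98e-08). With all 61 libraries in the fit, and in libraries numbered 5 to 9 alone, H2-Aa and Cd74 no longer met the same-direction rule, while H2-Ab1 did. Without B6_1 and B6_6, Ciita moved to -0.67 (adjusted p = 0.00909), and the list kept 13 lower members, with 5 in place of 6 in the same direction. With all 61 libraries it had 12 lower members and 2 with the same direction. In libraries numbered 5 to 9 alone it had 10 and 4. Macrophage and myeloid markers summed to log2 levels of 6.83 to 8.59 in NZO and NOD and 6.62 to 8.23 in the others (difference -0.09, permutation test, adjusted p = 0.7), with 0 of 11 tested markers higher and 1 lower. Of 12 lymphocyte markers, 2 were abundant enough to test, of which Cd2, an adhesion receptor of T and NK cells, fell (-1.86, adjusted p = 0.0045), with -1.23 in NZO (adjusted p = 0.116) and -2.48 in NOD (adjusted p = 0.0106). Jchain, the joining chain of antibodies, also fell (-1.87, adjusted p = 0.027), the 1 of 7 tested markers of lymph node and antibody that did. Of these 7, 1 was higher and 0 lower in NZO alone, and the same counts held in NOD alone. Summed levels showed no detectable difference for lymphocyte markers (-0.32, permutation test, adjusted p = 0.7). Nor did those of lymph node and antibody markers (0.30, permutation test, adjusted p = 0.67). Cd2 and Jchain without B6_1 and B6_6 are not reported here. With marker sums as covariates, lymphocyte markers among them, H2-Ab1 gave -1.55 (adjusted p = 3.29e-08) and H2-Aa -1.22 (adjusted p = 1.6e-06). Fcgr2b, the inhibitory Fc receptor of B cells and macrophages, fell by 1.06 (SE 0.13, adjusted p = 3.28e-08), with medians of 3.24 CPM in NZO and 2.63 CPM in NOD, against 5.87 CPM in the others.

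**Figure D5:**
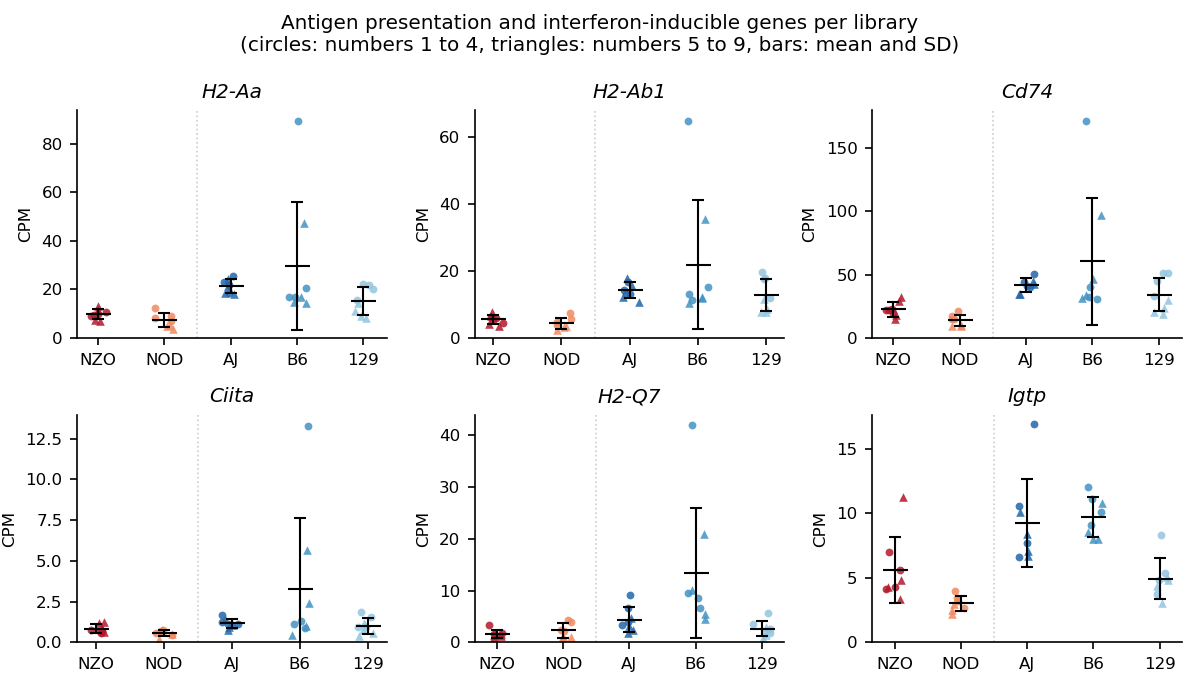
Level in CPM of 6 genes of antigen presentation and the interferon response in each library, with mean and SD per strain, NZO and NOD left of AJ, B6 and 129, circles for libraries numbered 1 to 4 and triangles for 5 to 9. B6_1 and B6_6 are the 2 highest points of H2-Aa, H2-Ab1, Cd74, Ciita and H2-Q7; Igtp of 129 overlaps with NZO.

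The 250 bases before the transcript start are shown for H2-Aa, to display the boxes through which Ciita acts, and for Igtp and Gbp2b, lower genes of the interferon response that hold an interferon response element (RefSeq, GRCm38.p6). Capitals mark TGACGTCA (the cyclic AMP response element, whose letters form the X2 box of class II promoters) and ATTGG (the inverted CCAAT of the Y box) in H2-Aa, and GAAANNGAA or its complement in the other promoters. H2-Aa is read from the minus strand at chr17:34287824-34288073, Igtp from the plus strand at chr11:58199306-58199555, and Gbp2b from the plus strand at chr3:142594597-142594846.
H2-Aa: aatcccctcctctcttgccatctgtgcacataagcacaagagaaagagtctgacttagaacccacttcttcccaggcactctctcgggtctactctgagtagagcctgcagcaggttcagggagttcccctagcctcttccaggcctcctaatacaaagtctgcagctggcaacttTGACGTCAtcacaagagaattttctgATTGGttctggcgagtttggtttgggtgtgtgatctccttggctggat
Igtp: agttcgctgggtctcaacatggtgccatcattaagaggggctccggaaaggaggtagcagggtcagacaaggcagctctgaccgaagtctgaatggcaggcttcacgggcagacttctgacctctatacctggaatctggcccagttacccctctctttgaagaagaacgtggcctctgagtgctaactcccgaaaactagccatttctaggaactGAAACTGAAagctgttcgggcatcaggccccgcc
Gbp2b: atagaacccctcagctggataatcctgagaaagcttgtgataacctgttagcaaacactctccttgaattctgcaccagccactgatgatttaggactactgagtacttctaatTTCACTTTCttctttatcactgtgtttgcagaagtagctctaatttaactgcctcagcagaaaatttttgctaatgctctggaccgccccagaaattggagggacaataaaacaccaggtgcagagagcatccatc
In H2-Aa the 2 boxes lie 74 to 67 and 48 to 44 bases before the start. The letters TGACGTCA stood, on either strand, in 1.5% of 32851 promoters of this length, ATTGG in 33.8% and GAAANNGAA in 7.1%. Promoters were matched for 36 of the higher and 20 of the lower named genes. GAAANNGAA stood in 5 and 3 of them, ATTGG in 13 and 11, TGACGTCA in 2 and 2, and the E-box CACGTG, found in 6.0% of all, in 0 and 1. A named gene was counted when any of its promoters held the letters, while the shares of all are per promoter. Genes with several promoters were thus likelier to be counted. A match is a description of letters and not a binding site.

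Interferon-response genes did not move as one. Of 29 interferon-stimulated genes, 1 was higher and 5 lower in the joint contrast, and 0 met the same-direction rule (1 without NZO_1). The count of higher genes was 2 without B6_1 and 0 without NOD_3. NZO alone had 9 higher and 1 lower (median difference 0.25), and NOD alone 0 higher and 11 lower (median -0.38). Of 16 GTPases induced by interferon gamma, 1 was higher (2 without NZO_7) and 5 lower. Igtp, which acts on vacuoles of intracellular pathogens, had means of 5.59 ± 2.53 CPM in NZO (SD, n = 8) and 3.02 ± 0.609 CPM in NOD (SD, n = 7), against 9.26 ± 3.43 in AJ, 9.71 ± 1.51 in B6 and 4.94 ± 1.56 CPM in 129 (SD, n = 8 each). It fell by 0.45 in NZO (adjusted p = 0.0486) and 1.34 in NOD (adjusted p = 1.36e-06), with a difference between them (0.89, adjusted p = 0.00223), and the NZO call was lost without any 1 of 25 libraries.

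Gbp2b, a guanylate-binding protein, was near 0 in NZO (mean 0.248 CPM), NOD (0.239 CPM) and B6 (0.126 CPM), and present in AJ (4.43 CPM) and 129 (2.35 CPM), and its difference was -2.06 (SE 0.30, adjusted p = 1.07e-06). Gvin1, a very large inducible GTPase, showed 2.15 by itself (adjusted p = 3.73e-05). Its level was 5.4 CPM in NZO and 4.13 CPM in NOD, against 26.9 CPM in B6 and 0.218 and 0.193 CPM in AJ and 129. With equal weight for each library the difference was -0.89, and with the copies Gm4070 and Gm8979 added -0.67 (adjusted p = 0.00182), so no direction can be given for Gvin1.

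Of 24 genes of the unfolded protein and integrated stress responses, 13 were higher and 0 lower, among them the chaperone Hspa5 (0.16, adjusted p = 0.0343) and the transcription factor Atf3 (0.97, adjusted p = 0.00286). Ern1, the sensor kinase IRE1 alpha, was the 1 member with the same direction, at 26.0 ± 3.19 CPM in NZO (SD, n = 8) and 26.1 ± 4.93 CPM in NOD (SD, n = 7), against 19.7 ± 1.39, 20.7 ± 4.16 and 19.1 ± 2.46 CPM in AJ, B6 and 129 (SD, n = 8 each; 0.40, SE 0.07, adjusted p = 1.5e-05). The count of 1 became 2 without NOD_5 or B6_7 and 3 without AJ_4, and the 13 higher members became 4 with marker sums as covariates. Of 18 immediate early genes, 5 were higher and 0 lower, with Nr4a3 and Ier3, an anti-apoptotic early gene (0.58, SE 0.15, adjusted p = 0.00283), in both strains. Its joint difference was 0.14 in libraries numbered 1 to 4 and 0.94 in those numbered 5 to 9 (difference -0.81, adjusted p = 0.0351). The call of Ier3 in both arms was lost without NZO_5, NZO_6, NZO_7, NOD_5, NOD_7 or NOD_8.

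In the heat shock and oxidative stress list, 7 were higher and 1 lower of 27 (11 higher without 129_7, 2 lower without NOD_4). Hspb6, the small heat shock protein of muscle, rose by 0.60 (SE 0.08, adjusted p = 2.6e-07) to medians of 791 CPM in NZO and 671 CPM in NOD, against 464 CPM in the other 24 libraries. With marker sums as covariates it gave 0.34 and the NOD call was lost (adjusted p = 0.121). In NZO the difference was 0.98 in numbers 1 to 4 and 0.34 in numbers 5 to 9 (difference 0.65, adjusted p = 0.0016). Nqo1, a quinone reductase induced by Nrf2, fell by 0.36 (SE 0.05, adjusted p = 1.57e-06), more in NOD than in NZO (NZO minus NOD 0.37, adjusted p = 0.00097). Its NZO call (adjusted p = 0.04) was lost without any 1 of 10 libraries.

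The circadian clock list gave 1 higher and 6 lower members of 19. Hlf and Nr1d1, a clock output factor and the repressor REV-ERB alpha, fell in both strains (-0.74, SE 0.17, adjusted p = 0.000761, and -0.32, SE 0.08, adjusted p = 0.00288). Nr1d1 had medians of 92.7 CPM in NZO and 91.6 CPM in NOD, against 131 CPM in AJ, 97.4 CPM in B6 and 103 CPM in 129, and without AJ its difference was -0.15 (adjusted p = 0.27). Its NOD call (adjusted p = 0.0391) was lost without any 1 of 10 libraries. Dbp, a further output factor, had -0.45 in NZO (adjusted p = 0.364) and -1.52 in NOD (adjusted p = 0.0038), a difference between the strains that missed the threshold (adjusted p = 0.0736). The time of day of tissue collection is not given in the sources used here. With marker sums as covariates 1 clock gene was lower and Hlf gave -0.40 (adjusted p = 0.15).

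Genes of protein breakdown and autophagy gave 6 higher and 2 lower of 20. Gabarapl1, which builds autophagosomes, held 63.0 to 94.2 CPM (median 77.1) in NZO and 50 to 86.5 CPM (median 59.2) in NOD, against 32.4 to 71.1 CPM (median 44.6) in the others (0.60, SE 0.07, adjusted p = 7.07e-09). The muscle ubiquitin ligases Trim63 and Fbxo32 rose in NOD (1.10 and 0.68) and had -0.01 and 0.11 in NZO (NZO minus NOD adjusted p = 1.28e-05 and 0.0103). Bnip3l, a mitophagy receptor, passed narrowly with 0.11, and gave -0.02 (adjusted p = 0.724) without 129. Its same-direction call was lost without any 1 of 34 libraries.

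Genes of denervation and the neuromuscular junction gave 2 higher and 4 lower of 20, a share near the background. Gadd45a rose as given above. Myh8, the neonatal myosin, fell by 0.73 (SE 0.13, adjusted p = 5.9e-05) and Lrp4, the agrin receptor of the junction, by 0.28 (SE 0.06, adjusted p = 0.000354). AJ was highest, at means of 15.1 CPM of Myh8 and 25.3 CPM of Lrp4, and without AJ the differences were -0.19 (adjusted p = 0.401) and -0.08 (adjusted p = 0.469). The NZO call of Lrp4 was lost without NZO_2, NZO_4, NZO_5 or NZO_7.

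Vessel genes were higher. Of 10 endothelial markers, 7 rose and 0 fell, and 4 did so in both strains (Pecam1, Kdr, Flt1 and Cldn5). Kdr, the main VEGF receptor, held 49.3 to 83.8 CPM (median 73.4) in NZO and 50 to 80 CPM (median 72.0) in NOD, against 32.6 to 66.4 CPM (median 46.6) in AJ, B6 and 129 (0.51, SE 0.07, adjusted p = 2.01e-07). Cldn5, a tight junction claudin, rose by 0.50 (SE 0.09, adjusted p = 1.94e-05) and Flt1, a decoy VEGF receptor, by 0.25 (SE 0.05, adjusted p = 0.000378; without AJ 0.16, adjusted p = 0.0752). Without NOD_8 the same-direction call of Flt1 was lost. Without AJ that of Cldn5 was lost too (joint 0.40), and the count of 4 became 1. Summed over the list, log2 levels were 8.65 to 9.0 in NZO and 8.57 to 8.83 in NOD, against 8.34 to 8.46 in AJ, 8.58 to 8.69 in B6 and 8.45 to 8.62 in 129. The difference was 0.21 (permutation test, two-sided, adjusted p = 0.00019 over 19 measures).

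Adipocyte markers summed to log2 levels of 10.47 to 11.33 in NZO and NOD, against 10.23 to 10.89 in the others (0.25, permutation test, adjusted p = 0.0027). Of the 12, 3 were higher and 0 lower. Adipoq, the fat-cell hormone adiponectin, had 0.31 (adjusted p = 0.475) and Plin1, which coats fat droplets of adipocytes, 0.20 (adjusted p = 0.667). Lpl, lipoprotein lipase (0.30, SE 0.07, adjusted p = 0.000707), and Pnpla2, the triglyceride lipase ATGL (0.25, SE 0.06, adjusted p = 0.00122), are made by muscle fibres too. The sum adds CPM, so both weigh heavily in it, with means of 576 and 165 CPM in AJ, B6 and 129. It is therefore not a measure of fat cells alone. As a covariate, the sum also adjusts Lpl and Pnpla2 in part for themselves. The same-direction call of Lpl was lost without NZO_1 and that of Pnpla2 without any 1 of 12 libraries. The list had 5 higher members without AJ_1 and 1 lower member without NOD_3. The part of vessel cells in the differences of fatty acid oxidation, PPAR and stress genes was not tested. No endothelial sum was among the marker sums used as covariates. The part of fat cells was not tested beyond the fit with those sums, which called 2471 genes in all and 2 of the 17 PPAR genes higher.

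Erythrocyte markers gave 4 higher and 0 lower of 6, and their summed log2 level was 7.65 to 9.21 in NZO and NOD and 7.07 to 9.22 in the others (0.66, permutation test, adjusted p = 0.0027). Slow-fibre genes did not share a side: 12 of 17 were higher and 0 lower in NZO alone (median 0.63), against 1 higher and 2 lower in NOD alone (median -0.23), and 0 met the same-direction rule. Tnnt1, slow troponin T, had 1.22 in NZO (adjusted p = 2e-05) and -0.05 in NOD (adjusted p = 0.921; NZO minus NOD 1.27, adjusted p = 0.000983). The 17 fast-fibre genes gave 1 higher and 0 lower.

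Genes known for strain variants or diabetes loci gave 6 higher and 5 lower of 28. Ifi202b, proposed as an obesity gene of NZO, had means of 6.82 ± 2.85 CPM in NZO (SD, n = 8) and 2.23 ± 0.671 CPM in NOD (SD, n = 7), against 3.46 ± 0.499 in AJ, 0.0766 ± 0.106 in B6 and 1.64 ± 0.373 CPM in 129 (SD, n = 8 each). Its difference of 2.46 (SE 0.19, adjusted p = 2.27e-13) was 0.71 without B6, and the NOD mean lay between those of AJ and 129. Dysf, the membrane repair gene with an insertion in A/J mice, had medians of 131 CPM in NZO and 125 CPM in NOD, against 13.8 CPM in AJ, 72.0 CPM in B6 and 137 CPM in 129, and its difference of 1.39 was 0.42 without AJ. Nnt, the mitochondrial transhydrogenase that is mutated in a widely used B6 substrain, had means of 127 CPM in NZO and 145 CPM in NOD, against 142 CPM in AJ, 48.7 CPM in B6 and 106 CPM in 129. Its difference of 0.59 (SE 0.06, adjusted p = 7.13e-10) was 0.15 (adjusted p = 0.0705) without B6. Glo1, the glyoxalase that clears methylglyoxal, had 95.3 CPM in NZO and 119 CPM in NOD, against 272 CPM in AJ, 88.6 CPM in B6 and 181 CPM in 129 (-0.61, and -0.25 without AJ). For these 4 genes at least 1 of the other 3 strains lay at or beyond the level of NZO or NOD.

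Cox7a2l, an assembly factor of respiratory supercomplexes, rose by 0.19 (SE 0.04, adjusted p = 0.000126), and also by 0.19 with its copy Gm6969 added (adjusted p = 0.000157). Tbc1d1, a relative of Tbc1d4, rose in NOD (0.67, adjusted p = 0.00165) and had 0.28 in NZO (adjusted p = 0.191). In NZO it rose by 0.67 in libraries numbered 1 to 4 (adjusted p = 0.000269) and had -0.30 in those numbered 5 to 9 (adjusted p = 0.401). These differed from each other (0.98, adjusted p = 0.0322). Capg, an actin-capping protein, was low in NOD (2.35 ± 1.0 CPM, SD, n = 7) and not in NZO (9.21 ± 1.73, SD, n = 8), against 8.36 to 10.5 CPM as means of the others, and Cd38, an NAD hydrolase, was low in NZO (-0.58) and had -0.10 in NOD. Cd101, an immunoglobulin superfamily gene of a NOD diabetes locus, rose in NOD (3.01, adjusted p = 2.14e-05) at levels under 1 CPM in every library.

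NZO and NOD differed from each other in 3794 genes (1925 higher in NZO and 1869 lower). Among same-direction genes, 87 of the 566 higher and 92 of the 507 lower also differed between NZO and NOD.

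Same-direction genes made up from 4.4% of genes tested on chromosome X to 9.3% on chromosome 18, leaving aside Y and the mitochondrial genome. In 5 Mb windows, the highest counts were 24 of 91 genes on chromosome 4 from 40 to 45 Mb (26.4%), 16 of 60 on chromosome 4 from 145 to 150 Mb (26.7%) and 15 of 122 on chromosome 17 from 30 to 35 Mb (12.3%), against 6.77% in all. The first window holds Galt and, beside it, the chemokine gene Ccl27a (0.90 in NZO and 0.61 in NOD). Ccl27a held 2.61 CPM in NZO and 2.15 CPM in NOD, against 0.342 in AJ, 2.76 in B6 and 2.92 in 129, so only AJ lay below them. Most of the 24 are predicted genes such as Gm2163 (10.1 CPM in NZO and 10.9 CPM in NOD, against 0.112 in AJ, 0.543 in B6 and 0.166 in 129), for which sharing of reads with copies was not tested. Gm3892 and Gm10593 had the same mean in each strain, such as 2.39 CPM in NZO and 2.85 CPM in NOD. The count of 24 may thus hold copies of 1 gene more than once. Gm5859 was highest in B6 (3.24 CPM, against 1.51 in NZO and 1.45 in NOD). The second holds Rbp7, Mtor and Nmnat1, an NAD synthesis enzyme (0.21 and 0.20). Nmnat1 held 20.2 CPM in NZO and 19.9 CPM in NOD, against 15.8 in AJ, 15.4 in B6 and 21.6 in 129, so 129 lay above both. The third is the MHC region with H2-Ab1, H2-Aa and H2-DMb1, together with Angptl4 and Glo1. Neighbouring genes share haplotypes and are not independent.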

How the data were processed

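Skeletal muscle RNA was selected by poly(A), made into libraries with a KAPA mRNA HyperPrep kit and sequenced with an added ERCC spike-in, per the labels' protocols. The authors deposited an expected count per gene (19462 genes, 80.4% of values whole) and variance-stabilised log2 values (5.87 to 25.11). GRCm38 and DESeq2 are named per the submitters' processing notes, while no source used here gives the aligner, counter, annotation release or use of strand. Whole counts had been planned for. The deposited expected counts were rounded to whole numbers and tested with edgeR 4.0.16 (R 4.3.3) on the 39 libraries: filterByExpr by strain, TMM scaling, strain means, a quasi-likelihood F test with 34 residual degrees of freedom, and Benjamini-Hochberg adjustment over 15842 genes at 0.05. SE was derived from the log2 difference and its F (their ratio with F under a root). The deposited log2 values entered one alternative, in limma 3.58.1. Reads of strains far from GRCm38 may map less well, which was not tested.

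The text names the 12 same-direction genes at each end with the largest difference in the weaker strain (strain means outside those of AJ, B6 and 129, a mean of at least 5 CPM), up to 6 per direction without overlap of libraries, up to 3 members per direction of each described list, and called locus genes, 75 in all, of which some are not reported here. Other genes named from the lists and windows were chosen after their values were seen. Members and lists were chosen with earlier results of these data known. Symbols came from the deposited tables, and copies from BLAST 2.17.0 on GENCODE M21 transcripts (at least 95% identity over 200 bases and 50% of the shorter transcript). Of the 75 genes, 13 have such a copy, 8 of them with a copy in the count table. Library measures were compared by permutation tests with 100000 resamples. Tests were checked on simulated data. Alternatives were other scaling, filters, tools, covariates and sets of libraries. The marker sums used as covariates were those of hepatocyte, keratinocyte, lymphocyte and adipocyte markers. Libraries numbered 1 to 4 and 5 to 9 were also fitted apart, and the difference between them tested with strain by number group means. The wild-derived strains entered 1 alternative, and other tissues were not analysed here.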

Additional observations from a re-analysis of the deposited data

Results flagged for a closer look

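Within each strain, a library whose gap to its nearest neighbour was large against the strain's whole range was looked for in 455 groups of values. There were 49 such cases, 38 of them for a named gene, and the same library can stand in several. Chance gives about 1 in 20 groups where values are normally distributed, which was not checked here. The groups share libraries and are not independent. No explanation was tested for any of them.

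In NZO, library NZO_8 stood apart at 33.9 CPM of Rbp7, 195 of Capn3, 6.62 of Fcgr2b, 41.3 of Uqcc1, 35.2 of Angptl4 and 99.1 of Flt1, with log2 summed levels of 8.59 for macrophage and 10.60 for fibroblast markers. NZO_1 stood apart at 18.5 CPM of Nudt19, 78.7 of Mtor and 1026 of Lpl, with 16.11% of counts in the mitochondrial genome and 9.91 for smooth muscle markers. NZO_2 had 3.29 CPM of Vsig10 and a total of 65.15 M counts. NZO_3 had 3.31 CPM of H2-Q7, and NZO_5 had 9.65 CPM of Gvin1 and 11.2 of Igtp.

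In NOD, NOD_4 had 37.2 CPM of Ern1 and 229 of Dysf, NOD_7 had 50.5 CPM of Bnip3l, and NOD_1 had 6.25 CPM of Myh8.

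In AJ, AJ_4 had 33.4 CPM of Nr4a3, AJ_2 had 1.42 of Gvin1 and AJ_3 had 16.9 of Igtp and 7.0 for nerve markers, while AJ_7 had 8.34 for endothelial markers. In B6, B6_1 had 64.7 CPM of H2-Ab1, 89.4 of H2-Aa, 172 of Cd74, 41.9 of H2-Q7, 13.3 of Ciita and 0.36 of Cd101. B6_3 had 1641 CPM of Pdk4 and 69.8 of Nnt, and B6_6 had 1.59 of Hist2h2aa2. B6_5 had 13.1 CPM of Galt and 109 of Ndufb9, with 46.27% of counts in Rn18s-rs5 and 75.27% in the 20 most abundant genes.

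In 129, 129_4 had 2.14 CPM of Hba-a1, 24.3 of Hbb-bt, 8.34 of Igtp and 9.22 for erythrocyte markers. Library 129_6 had 20.8 CPM of Galt, 129_8 had 1.35 of Gvin1 and 129_7 had 4.89 of Ier3. Library 129_2 had 0.171 CPM of Cd101 and 8.45 for endothelial markers.

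For 16 named genes, NZO and NOD differed from each other in edgeR's test of NZO minus NOD. The log2 difference was negative, so lower in NZO, for Snph (-1.95), Cd101 (-1.87), Gadd45a (-0.95), Cd38 (-0.48), Bckdha (-0.39), Ppm1k (-0.34), Glo1 (-0.32) and Capn3 (-0.18). It was positive, so higher in NZO, for Capg (1.96), Ifi202b (1.61), Hist2h2aa1 (1.36), Igtp (0.89), Otub2 (0.72), Uqcc1 (0.55), Tbc1d4 (0.49) and Nqo1 (0.37).

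For named genes, 17 differences from AJ, B6 and 129 were not the same in libraries numbered 1 to 4 and in those numbered 5 to 9, in edgeR's test of the first minus the second. For the joint contrast these were Ccndbp1 (0.75), Gbe1 (0.62), Ier3 (-0.81), Gadd45a (-0.91) and Actc1 (-1.60). For NZO they were Gbe1 (1.02), Tbc1d1 (0.98), Ccndbp1 (0.96), Hspb6 (0.65), Gys1 (0.36), Acadl (-0.65), Tbc1d4 (-0.79), Rbp7 (-1.20), Pdk4 (-1.47), Gadd45a (-1.66) and Actc1 (-2.50). For NOD, Ccndbp1 differed (0.53). A negative value means a lower difference in numbers 1 to 4.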

How the results depend on the processing

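The joint contrast called 3782 genes. It called 2400 with each library weighted equally, 2471 with marker sums as covariates and 2 with strain means as replicates, and NZO alone called 2661 in place of 4010 with marker sums. The equal weighting and strain means change the quantity tested, and the cause of the marker-sum change was not tested. Leaving out single libraries gave 3568 to 3978 genes for the joint contrast, 3607 to 4201 for NZO, 3028 to 3718 for NOD and 968 to 1123 same-direction genes. With all 61 libraries in the fit 2843 genes were called and 716 met the same-direction rule. DESeq2's Wald test called 4052 and limma on the variance-stabilised values 3794. In libraries numbered 1 to 4 alone, NOD called 2342 genes and 709 met the same-direction rule. In those numbered 5 to 9 alone, the joint contrast called 2080, NZO 2458 and NOD 1751, and 490 met the rule. Both fits hold fewer libraries and were chosen after seeing the data. With these number groups as a block 4192 genes were called and 1231 met the rule, and with Xist as a covariate 4154 and 1209. Of the recomputed counts over all genes (joint, NZO, NOD and same direction), 216 stayed within 1.5 times and the 10 given moved further, while 240 recomputed counts of list members or of higher genes moved further. Of 68 reported same-direction genes, 26 lost that call without AJ, 11 without B6, 8 without 129, 20 with marker sums, 19 with all 61 libraries, 23 in numbers 1 to 4 alone and 29 in numbers 5 to 9 alone. Genes that lost it without AJ, with marker sums and with all 61 libraries were Acsl1, Angptl4, Ndufb9, Atp5d, Gsk3a, Gys1, Ppm1k, Igtp, Nr1d1, Lrp4, Lpl and Pnpla2. The direction turned for Hist2h2aa2 (-0.33), Gbp6 (ENSMUSG00000104713, -0.11) and Gvin1 (-0.67) with the counts of copies added, an alternative chosen after seeing the data, for Gvin1 with libraries weighted equally (-0.89) and for Bnip3l without 129 (-0.02). Replicate numbers did not pair libraries: 72 same-number pairs had a median correlation of 0.08 (-0.51 to 0.64), and 8 of 39 libraries correlated best with their own number. With the number as a block 3887 genes were called and 1137 met the same-direction rule, 998 of them shared, and the call was lost for Angptl4, Tbc1d4, Ppm1k, Nr1d1, Nqo1 and Bnip3l. Leaving out B6_1 and B6_6, also chosen after seeing the data, gave 3694 and 1053. With 2 and 3 strains per side, strain differences that have nothing to do with diabetes cannot be told apart from those that do. Genes of few counts, such as Cd101, are limited by depth.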

Other observations

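Several same-direction genes outside the groups above concern growth, calcium and fuel synthesis, and they were chosen after their values were seen. Me1, the cytosolic malic enzyme that makes NADPH for lipid synthesis, fell by 0.48 (SE 0.05, adjusted p = 3.75e-09 in edgeR's quasi-likelihood test), with -0.61 in NZO and -0.34 in NOD. Of 19 genes of fatty acid and triglyceride synthesis, 1 was higher and 3 were lower. Vegfa, the main vessel growth factor and the ligand of Kdr, rose by 0.55 (SE 0.08, adjusted p = 8.32e-07), with 0.36 in NZO and 0.75 in NOD. Igf2, a growth factor of muscle development, fell by 0.66 (SE 0.09, adjusted p = 3.4e-07), with -0.49 in NZO and -0.84 in NOD.

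Ryr3, a calcium release channel scarce in adult muscle, fell by 1.46 (SE 0.23, adjusted p = 5.99e-06). Kcnj11, the pore of the ATP-sensitive potassium channel, rose by 0.20 (SE 0.05, adjusted p = 0.00114). Pax7, the transcription factor of satellite cells, fell by 0.48 (SE 0.11, adjusted p = 0.000881), with strain means of 1.68 CPM in NZO and 1.63 CPM in NOD, against 1.69 CPM in AJ, 2.49 CPM in B6 and 2.96 CPM in 129. AJ thus lay at the NZO and NOD level of Pax7. Retnla, made by alternatively activated macrophages, fell by 0.58 (SE 0.13, adjusted p = 0.000953), while the summed macrophage markers did not pass the test. Gapdh, the glycolytic enzyme often used as a constant gene, rose by 0.79 (SE 0.06, adjusted p = 6.96e-14), with 0.83 in NZO and 0.75 in NOD. It has many processed pseudogenes, and sharing of reads with them was not tested.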
